A study of Mus musculus with 16 samples.

Results

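Transcripts of 10 genes of the Wnt pathway were followed in embryonic mouse outflow valves. These were the ligand gene Wnt9a, the receptor genes Fzd1, Fzd2 and Fzd7, the secreted antagonist Sfrp1 and the dickkopf family gene Dkk3. The others were the transducer Ctnnb1, the nuclear effectors Lef1 and Tcf7l2, and the feedback gene Axin2. The 10 genes were chosen by name, and all were found among the 13964 genes of the deposited expression table. RNA sequencing was done on valve tissue cut out by laser from C57BL/6 embryos at stage E14.5, in mid-gestation, and the labels give 4 libraries to each of 4 groups. The groups were Jag1flox;Nkx2.5-Cre mutant pulmonary valve, wild-type pulmonary valve, Jag1flox;Nkx2.5-Cre mutant aortic valve and wild-type aortic valve. Nkx2.5-Cre deletes floxed sequence in cells with activity of the cardiac gene Nkx2-5, so Jag1 is deleted in that lineage. The labels do not say whether 1 or both Jag1 alleles were floxed, and since only the mutants are labelled with the Cre, Jag1 loss and Cre presence cannot be told apart. Jag1 encodes a membrane ligand that activates Notch receptors on neighbouring cells.

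Wnt proteins are secreted ligands that bind frizzled receptors, and in the canonical branch this stops the destruction of beta-catenin, which then enters the nucleus and switches on target genes with TCF/LEF proteins. Secreted frizzled-related proteins bind Wnts outside the cell, and Axin2 is both a target of the pathway and part of the complex that destroys beta-catenin. In the developing mouse heart, beta-catenin in endocardial cells is needed for the formation of cushion mesenchyme, from which the valve leaflets grow.

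Values are normalised counts, a gene's reads relative to those of all deposited genes in its library (CPM, scaled between libraries), so they compare 1 gene across libraries. Levels of different genes are compared only after division by exon length. Differences are given as log2 of (normalised count + 1), mutant minus wild type or pulmonary minus aortic, with the standard error (SE) and 95% interval of a limma model over all 16 libraries. A gene counted as called where the p-value adjusted by the Benjamini-Hochberg method over all 13963 genes tested was under 0.05. All 10 genes passed the filter on low values, a normalised count of at least 1 in at least 4 libraries.

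Promoter sequence in the RefSeq-based table (build GRCm38.p6, 250 bases before to 50 bases after an annotated start) was present for 7 of the 10 genes: Wnt9a, Fzd1, Fzd7, Lef1, Axin2, Tcf7l2 and Ctnnb1. The windows of Wnt9a and Fzd7 are shown because these genes had the lowest unadjusted p for genotype among the 10, and that of Lef1 because it varied most between libraries among the 7. All 3 windows lie on the plus strand: Wnt9a at chr11:59306680-59306979, Fzd7 at chr1:59481897-59482196 and the first of 4 Lef1 windows at chr3:131110047-131110346. Gene coordinates given below come from another annotation (GENCODE), whose gene starts can differ. The windows of Fzd1 and Fzd7 and the first of Lef1 lie wholly upstream of the genes as given there. Capitals mark matches to the TCF/LEF core CTTTGA or the core TGGGAA of the Notch effector RBPJ, each searched on both strands (other strand TCAAAG and TTCCCA). The 2 motifs do not overlap each other.
Wnt9a: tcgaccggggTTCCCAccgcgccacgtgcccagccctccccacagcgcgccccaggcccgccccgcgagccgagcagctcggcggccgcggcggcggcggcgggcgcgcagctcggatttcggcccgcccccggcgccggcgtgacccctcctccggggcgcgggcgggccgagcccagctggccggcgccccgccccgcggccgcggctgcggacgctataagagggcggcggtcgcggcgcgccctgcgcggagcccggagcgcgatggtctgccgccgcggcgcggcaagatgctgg
Fzd7: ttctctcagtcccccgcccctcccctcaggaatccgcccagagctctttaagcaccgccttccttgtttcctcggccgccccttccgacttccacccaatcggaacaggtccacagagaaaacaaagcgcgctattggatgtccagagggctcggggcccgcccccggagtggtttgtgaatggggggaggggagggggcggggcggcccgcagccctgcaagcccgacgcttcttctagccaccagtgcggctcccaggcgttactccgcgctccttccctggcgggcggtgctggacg
Lef1: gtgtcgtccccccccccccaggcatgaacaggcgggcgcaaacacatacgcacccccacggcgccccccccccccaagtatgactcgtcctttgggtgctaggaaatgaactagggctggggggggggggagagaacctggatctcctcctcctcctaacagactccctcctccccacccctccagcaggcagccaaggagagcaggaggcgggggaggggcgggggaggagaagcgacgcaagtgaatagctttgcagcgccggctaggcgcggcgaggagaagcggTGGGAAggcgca
The Wnt9a window held 1 RBPJ core, at window bases 11 to 16 on the minus strand. The Fzd7 window held neither motif. The Lef1 window held 1 RBPJ core, at window bases 289 to 294 on the plus strand. The second Lef1 window overlaps the first and holds the same RBPJ core. Of the 2 further Lef1 windows, 1 held another RBPJ core and 1 held 2 copies of the TCF/LEF core. The Fzd1 window held 1 TCF/LEF core, at window bases 9 to 14 on the minus strand, and the windows of Axin2, Tcf7l2 and Ctnnb1 held neither motif. Over 32851 promoter windows of 300 bases, 16% held the TCF/LEF core and 25.6% the RBPJ core, so a match in a window of this length is common.

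Reads recovered from the deposited values, summed over its 13964 genes, came to 4.56 to 8.68 M per library (megareads, median 7.37). Jag1, the targeted gene, did not overlap between genotypes in either valve, with mutants lower. It had 12.4, 4.70, 3.78 and 1.85 in mutant pulmonary libraries 1 to 4, against 13.6, 19.2, 25.7 and 15.4 in wild-type pulmonary libraries 1 to 4. It had 9.90, 11.4, 5.93 and 10.2 in mutant aortic libraries, against 20.2, 54.7, 39.7 and 18.8 in wild-type aortic libraries. The log2 difference averaged over both valves was -1.68 (SE 0.32), with a limma adjusted p of 0.218. Markers of cushion mesenchyme were present in all libraries, for example Postn at 307 to 3234 and Sox9 at 62.6 to 250. Transcripts of skeletal muscle split the libraries. The 16 marker genes of that tissue, all in the table, summed to 7.68 to 87.9 in 6 libraries (mutant pulmonary 4, wild-type pulmonary 2 and 4, mutant aortic 4, wild-type aortic 2 and 4) and to 911 to 3063 in the other 10. The 6 libraries are thus 1 mutant and 2 wild-type libraries in each valve. Summed cushion mesenchyme markers were 11098 to 14533 in the 6 libraries and 2613 to 10623 in the other 10, and summed endothelial markers 1799 to 3355 and 325 to 1823. Summed cardiomyocyte markers were 277 to 1487 in the 6 libraries and 1173 to 7913 in the other 10. Summed erythroid markers were 41411 in wild-type pulmonary library 1 and 36185 in wild-type aortic library 2, against 1113 to 9015 in the other 14. Wild-type pulmonary library 1 also had the lowest sum of endothelial markers, 325. Summed neuronal and Schwann cell markers were 835 in mutant pulmonary library 1, against 97.6 to 365 in all other libraries. Mutant pulmonary library 1 also had the lowest sum of cushion mesenchyme markers, 2613. In such bulk samples, fewer cells of a type and less RNA per cell cannot be told apart.

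None of the 10 genes passed the threshold between genotypes or between valves. Over all 13963 genes limma called 0 in each of the 7 contrasts (0%). On the reads recovered from the table, edgeR also called 0 genes in every contrast. DESeq2 called 2 genes between genotypes in the pulmonary valve, 5 for the mean over both valves and 0 in the other contrasts. With the litter as a block limma called 2 genes for that mean, and none of the genes that DESeq2 or this model called was among the 10. At an unadjusted p under 0.05, limma gave Fzd7 alone of the 10 in the pulmonary valve, where 3.13% of all genes passed, and none in the aortic valve, where 1.40% passed. For the mean over both valves it gave Wnt9a and Fzd7, where 2.79% of all genes passed. No gene of the 10 separated mutant from wild-type libraries in either valve. Over all genes, the 4 mutant pulmonary libraries lay all above the 4 wild-type ones for 0.938% and all below them for 1.05%, and in the aortic valve they did so for 0.759% and 0.824%. Within a valve, libraries of the same number share a litter. Fzd1 in the pulmonary valve was the only gene of the 10 with the same direction in all 4 litter pairs of a valve. Of all genes, 6.67% were higher and 6.90% lower in the mutant of all 4 pulmonary pairs, and 5.99% were higher and 5.03% lower in the mutant of all 4 aortic pairs.

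**Figure D1:**
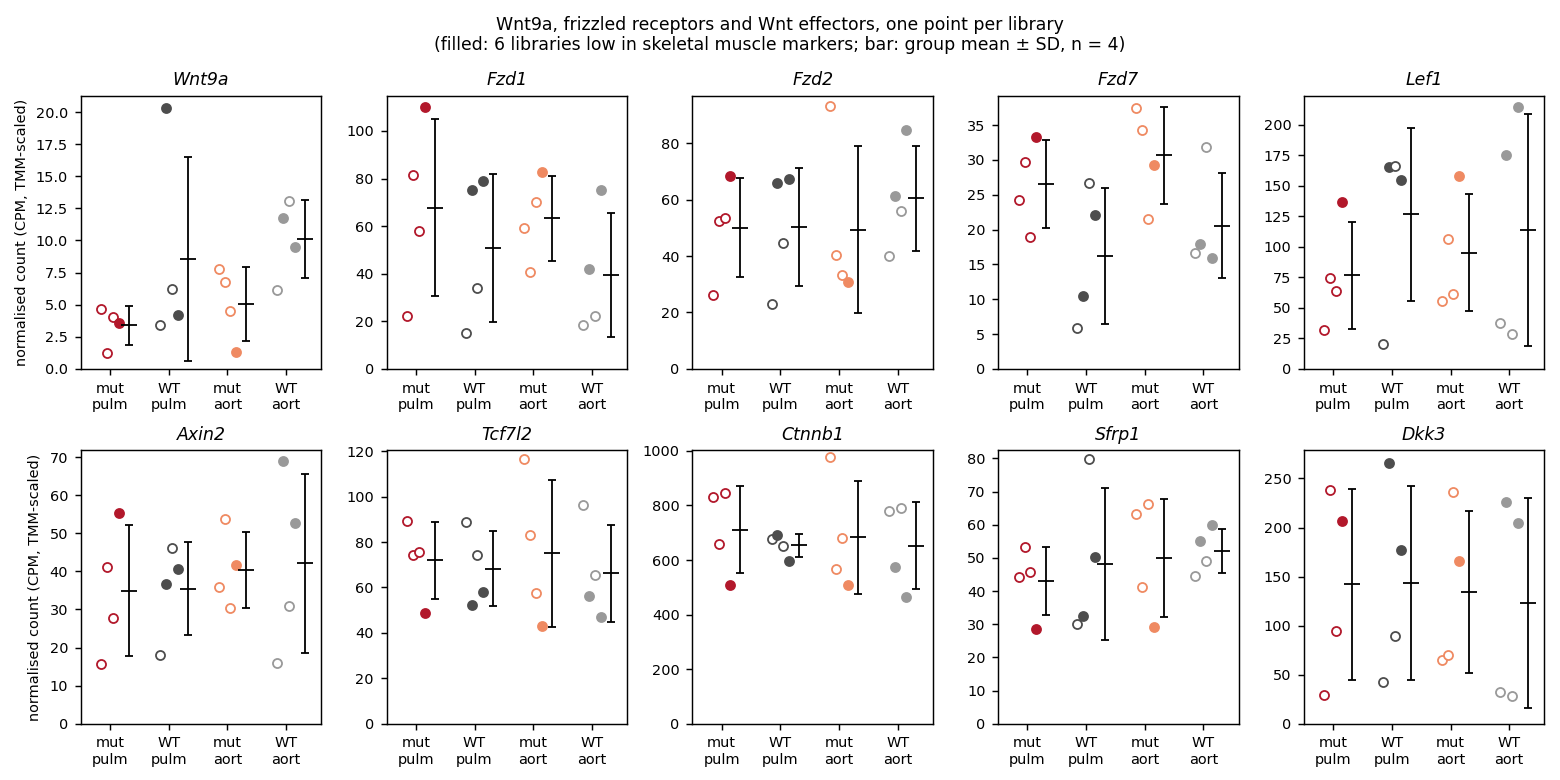
Normalised count (vertical axis, from 0) of each of the 10 genes in every library, by group (mut, mutant; WT, wild type; pulm, pulmonary; aort, aortic), with filled points for the 6 libraries poor in skeletal muscle markers and a bar for the group mean ± SD (n = 4). Mutant and wild-type points overlap in both valves for every gene. Lef1 and Dkk3 vary widely within groups, with filled points at 137 or more for Lef1 and 166 or more for Dkk3. Open points overlap with these, reaching 166 for Lef1 (wild-type pulmonary 3) and 239 for Dkk3 (mutant pulmonary 2).

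Few Wnt9a reads were found in any group, and its mean was lower in mutants of both valves without passing the test. The gene, which encodes a secreted Wnt ligand, lies at chr11:59306928-59333552 on the plus strand (ENSMUSG00000000126, GRCm38). Wnt9a had 4.68, 1.21, 4.06 and 3.58 in mutant pulmonary libraries 1 to 4, against 3.41, 20.3, 6.25 and 4.16 in wild-type pulmonary libraries 1 to 4. In the aortic valve it had 7.80, 6.74, 4.54 and 1.28 in mutants, against 6.11, 11.7, 13.0 and 9.48 in wild type. In the pulmonary valve 1 wild-type library, number 2, stood far above the rest and the other 7 libraries overlapped, while in the aortic valve mutant 1 and mutant 2 overlapped with the lowest wild-type library. The group means were 3.38 ± 1.52 in mutant and 8.53 ± 7.94 in wild-type pulmonary valves, and 5.09 ± 2.88 in mutant and 10.1 ± 3.04 in wild-type aortic valves (SD, n = 4 each).

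The log2 difference of Wnt9a was -0.90 (SE 0.54, 95% interval -2.03 to 0.23) in the pulmonary valve and -0.99 (SE 0.54, -2.12 to 0.14) in the aortic valve. The mean over both valves was -0.94 (SE 0.38, -1.74 to -0.14), with a limma adjusted p of 1.00. The mutant was lower in 3 of 4 litter pairs in each valve. These values rest on 9 to 152 reads per library (median 38), so counting error is large. The pulmonary difference was -0.41 without wild-type pulmonary library 2 and -0.60 without mutant pulmonary library 2. The aortic difference was -0.57 without mutant aortic library 4. The mean difference was -1.77 over the 6 libraries poor in skeletal muscle markers alone and -0.49 over the other 10.

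The frizzled genes encode Wnt receptors that span the cell membrane, and Fzd1, Fzd2 and Fzd7 each have a single exon. Fzd7 and Fzd1 averaged higher in mutants of both valves, and Fzd2 did not, with none past the test. Fzd7 (chr1:59482424-59486955, plus strand, ENSMUSG00000041075) had 24.2, 29.7, 18.9 and 33.3 in mutant pulmonary libraries 1 to 4, against 5.80, 10.4, 26.6 and 22.1 in wild-type pulmonary libraries 1 to 4. It had 37.5, 34.3, 21.4 and 29.3 in mutant aortic libraries, against 16.6, 17.9, 31.9 and 15.97 in wild-type aortic libraries. Wild-type pulmonary 1 and 2 lay below every mutant pulmonary library and wild-type pulmonary 3 and 4 within them. Wild-type aortic 1, 2 and 4 lay below every mutant aortic library, and wild-type aortic 3 lay among them.

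The log2 difference of Fzd7 was 0.85 (SE 0.39, 95% interval 0.02 to 1.68) in the pulmonary valve and 0.58 (SE 0.39, -0.25 to 1.41) in the aortic valve. Its mean over both valves was 0.72 (SE 0.28, 0.13 to 1.30), with a limma adjusted p of 1.00. The mutant was higher in 3 of 4 litter pairs in each valve. Without wild-type pulmonary library 1 the pulmonary difference of Fzd7 was 0.47, and no other single library moved it or the aortic one by over 1.5 times. The mean stayed above 0 in every alternative run, and was 0.92 over the 6 libraries poor in skeletal muscle markers alone and 0.62 over the other 10.

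Fzd1 (chr5:4753839-4758035, minus strand, ENSMUSG00000044674) had 22.1, 81.3, 57.8 and 110.0 in mutant pulmonary libraries, against 15.2, 75.1, 34.1 and 79.0 in wild-type pulmonary libraries. It had 59.3, 40.9, 70.1 and 82.6 in mutant aortic libraries, against 18.5, 42.0, 22.1 and 75.3 in wild-type aortic libraries. The groups overlapped in both valves. All 4 litter pairs were higher in the mutant in the pulmonary valve, and 3 of 4 pairs were in the aortic valve. The log2 difference was 0.46 (SE 0.55, 95% interval -0.70 to 1.62) in the pulmonary valve and 0.84 (SE 0.55, -0.33 to 2.00) in the aortic valve, with a mean of 0.65 (SE 0.39, -0.17 to 1.47). Without wild-type pulmonary library 1, which had the lowest Fzd1 value of all 16 and the highest erythroid marker sum, the pulmonary difference was -0.01, and over the other libraries left out singly it ran from 0.16 (mutant pulmonary 4) to 0.92 (mutant pulmonary 1). The aortic difference was 0.56 without wild-type aortic 1. Over the 10 libraries with more skeletal muscle transcript the mean difference of Fzd1 was 1.21, and over the other 6 it was 0.53.

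Fzd2 (chr11:102604396-102608058, plus strand, ENSMUSG00000050288) had 26.3, 52.3, 53.3 and 68.4 in mutant pulmonary libraries, against 22.9, 65.7, 44.7 and 67.3 in wild-type pulmonary libraries. It had 93.2, 40.3, 33.2 and 30.9 in mutant aortic libraries, against 39.9, 61.3, 56.0 and 84.8 in wild-type aortic libraries. Mutant aortic library 1 was the highest of all 16, mutant aortic 3 and 4 lay below every wild-type aortic library, and mutant aortic 2 lay just above the lowest of them. The log2 difference was 0.04 (SE 0.40, 95% interval -0.81 to 0.88) in the pulmonary valve and -0.39 (SE 0.40, -1.24 to 0.46) in the aortic valve. Leaving out mutant aortic library 1 gave -0.74 in the aortic valve, and leaving out wild-type aortic 4, mutant aortic 4 or mutant aortic 3 gave -0.21, -0.22 and -0.25. In the pulmonary valve the difference ran from -0.29 (without wild-type 1) to 0.31 (without mutant 1).

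**Figure D2:**
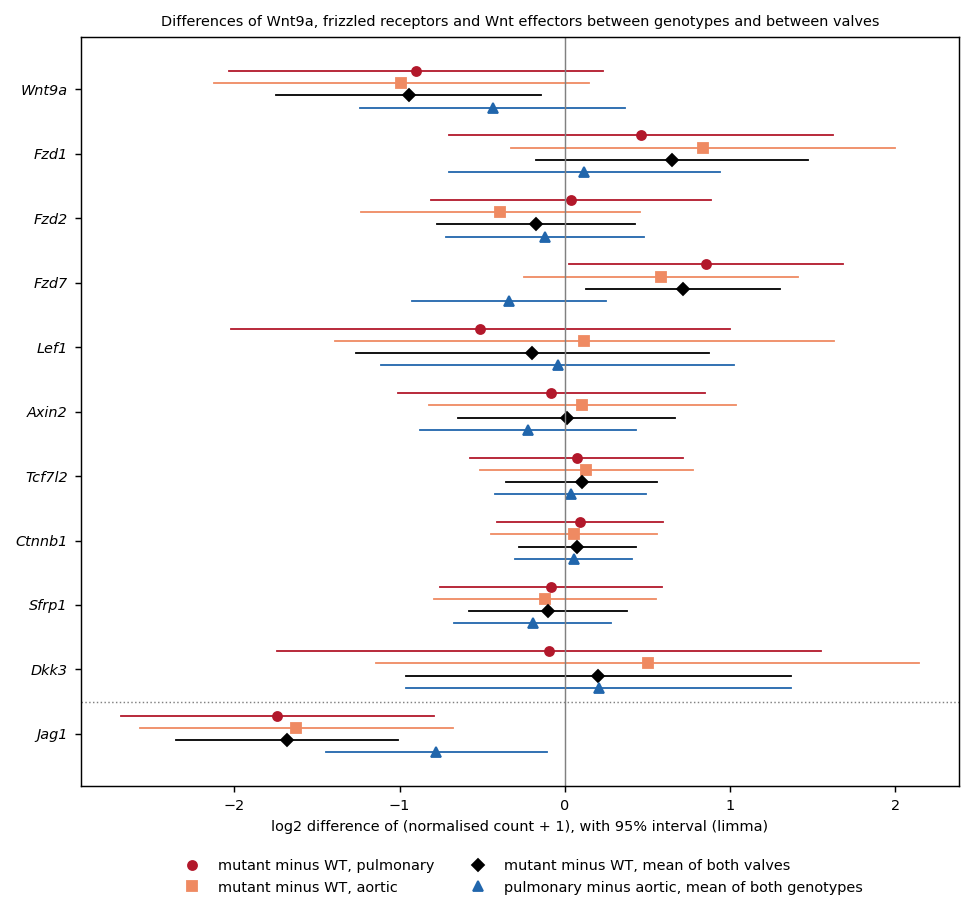
Log2 difference of (normalised count + 1) for the 10 genes and, under the dotted line, Jag1, with 95% intervals from limma (lines), for mutant minus wild type in each valve and on average and for pulmonary minus aortic on average. Of the 10 genes, the mean genotype interval lies apart from 0 for Wnt9a (-1.74 to -0.14) and Fzd7 (0.13 to 1.30). The genotype interval of Fzd7 in the pulmonary valve (0.02 to 1.68) does too, and no pulmonary minus aortic interval of the 10 genes does. For Jag1 the mean genotype interval (-2.35 to -1.01) and the pulmonary minus aortic interval (-1.45 to -0.11) both lie apart from 0.

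Sfrp1 and Dkk3 had very different spreads between libraries, and neither passed the test between genotypes. Sfrp1, which encodes a secreted protein that binds Wnts, lies at chr8:23411502-23449632 on the plus strand (ENSMUSG00000031548). It had 44.3, 53.4, 45.8 and 28.7 in mutant pulmonary libraries, against 30.0, 32.5, 79.7 and 50.3 in wild-type pulmonary libraries. It had 63.4, 41.4, 66.2 and 29.3 in mutant aortic libraries, against 44.5, 55.0, 49.0 and 59.8 in wild-type aortic libraries. Its values overlapped in both valves, and the mean log2 difference was -0.10 (SE 0.23, 95% interval -0.58 to 0.37).

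Dkk3 encodes a secreted protein of the dickkopf family whose role in Wnt signalling is less clear than that of the other dickkopfs. The gene lies at chr7:112116017-112159057 on the minus strand (ENSMUSG00000030772). It had 29.2, 239, 94.2 and 206 in mutant pulmonary libraries, against 42.5, 266, 89.2 and 177 in wild-type pulmonary libraries. It had 65.0, 70.0, 236 and 166 in mutant aortic libraries, against 32.6, 226, 28.4 and 204 in wild-type aortic libraries. The lowest library of each group had 28.4 to 65.0 and the highest 226 to 266, so the groups overlapped almost fully. The log2 difference was -0.10 (SE 0.78, 95% interval -1.74 to 1.55) in the pulmonary valve and 0.50 (SE 0.78, -1.14 to 2.15) in the aortic valve. With the 6 libraries poor in skeletal muscle markers left out, these were 0.50 and 1.72, and over those 6 alone they were -0.07 and -0.37.

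Ctnnb1, the gene of beta-catenin, had the highest level per exon length and the smallest spread of the 10. It lies at chr9:120929216-120960507 on the plus strand (ENSMUSG00000006932). Ctnnb1 averaged 710.4 ± 159 in mutant and 653 ± 42.6 in wild-type pulmonary valves (SD, n = 4 each). It averaged 683 ± 208 in mutant and 652 ± 159.6 in wild-type aortic valves (SD, n = 4 each). The mean log2 difference was 0.08 (SE 0.17), and its interval of -0.28 to 0.43 was the narrowest among the 10 genes. Its exons share 759 bases with Ulk4 on the opposite strand, and the sources used here do not say whether counting used strand, so reads of both genes there cannot be told apart.

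Lef1, a DNA-binding partner of beta-catenin, ranged from 20.3 to 214 between libraries. It lies at chr3:131110471-131224356 on the plus strand (ENSMUSG00000027985). Lef1 had 32.2, 74.5, 63.5 and 137 in mutant pulmonary libraries 1 to 4, against 20.3, 165, 166 and 155 in wild-type pulmonary libraries 1 to 4. It had 55.3, 106, 61.3 and 158 in mutant aortic libraries, against 37.5, 175, 28.6 and 214 in wild-type aortic libraries. In the pulmonary valve 3 wild-type libraries lay above all mutants and the fourth lay below them, so the groups overlapped. In the aortic valve wild-type libraries held both the highest values and the lowest.

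The log2 difference of Lef1 was -0.51 (SE 0.72, 95% interval -2.02 to 1.00) in the pulmonary valve and 0.12 (SE 0.72, -1.39 to 1.63) in the aortic valve. Without wild-type pulmonary library 1, rich in erythroid and poor in endothelial markers, the pulmonary difference was -1.25, and without any other single library it ran from -0.85 (mutant pulmonary 4) to -0.16 (mutant pulmonary 1). The aortic difference ran from -0.37 (without wild-type aortic 3) to 0.59 (without wild-type aortic 4). The part of the erythroid content in these values and in those of Fzd1 and Fzd7 was not tested. Nor was the part of the neuronal marker content of mutant pulmonary library 1. Within the 6 libraries poor in skeletal muscle markers the pulmonary difference was -0.22, and within the other 10 it was -0.13. In the aortic valve those values were -0.29 and 1.10. Lef1 exons share 1208 bases with the antisense gene Gm43352, which is not in the table.

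Tcf7l2, the other DNA-binding partner (chr19:55741820-55933654, plus strand, ENSMUSG00000024985), averaged 72.0 ± 16.9 in mutant and 68.3 ± 16.6 in wild-type pulmonary valves (SD, n = 4 each). It averaged 75.01 ± 32.4 in mutant and 66.2 ± 21.4 in wild-type aortic valves (SD, n = 4 each). Its mean log2 difference was 0.10 (SE 0.22, 95% interval -0.36 to 0.56), smaller than the spread between libraries.

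Axin2, often read as a reporter of canonical Wnt activity (chr11:108920349-108950783, plus strand, ENSMUSG00000000142), differed between genotypes by less than the spread between libraries. It had 15.5, 41.1, 27.9 and 55.3 in mutant pulmonary libraries, against 18.1, 36.7, 46.1 and 40.7 in wild-type pulmonary libraries. It had 36.0, 53.7, 30.4 and 41.7 in mutant aortic libraries, against 15.9, 69.1, 30.8 and 52.6 in wild-type aortic libraries. The mean log2 difference was 0.01 (SE 0.31), with a 95% interval of -0.64 to 0.67. Axin2 exons share 209 bases with the antisense gene Gm11670, which is not in the table.

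The effect of genotype did not differ detectably between the valves for any of the 10 genes. The difference of the log2 effects, pulmonary minus aortic, ran from -0.63 (SE 1.01) for Lef1 to 0.43 (SE 0.57) for Fzd2, and 0 of the 10 passed even an unadjusted p of 0.05, against 1.89% of all genes. Between valves, averaged over genotypes, the log2 differences ran from -0.44 (SE 0.38, 95% interval -1.24 to 0.37) for Wnt9a and -0.34 (SE 0.28, -0.92 to 0.25) for Fzd7 to 0.21 (SE 0.55, -0.96 to 1.37) for Dkk3. None of the 10 passed an unadjusted p of 0.05 there, against 0.337% of all genes. Within mutants alone and within wild type alone, 0 of the 10 passed it too, against 0.480% and 1.10% of all genes. Pulmonary libraries were prepared as batch 2 and aortic ones as batch 1, and a difference between valves cannot be told apart from 1 between batches.

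Variation between libraries was far larger for some of the genes than for others. The SD of log2 values over the 16 libraries was 1.17 for Dkk3 and 1.07 for Lef1, larger than that of 93.5% and 90.9% of all genes tested. It was 0.875 for Wnt9a, 0.868 for Fzd1, 0.659 for Fzd7, 0.622 for Axin2 and 0.577 for Fzd2, with 0.551 as the median of all genes. Sfrp1 at 0.434, Tcf7l2 at 0.410 and Ctnnb1 at 0.298 varied less than that median.

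Lef1 and Dkk3 lay high in the 6 libraries poor in skeletal muscle markers. Lef1 was 137 to 214 in those 6 and 20.3 to 166 in the other 10. Dkk3 was 166 to 266 in those 6 and 28.4 to 239 in the other 10. Fzd1 was 42.0 to 110.0 in the 6 and 15.2 to 81.3 in the other 10, and Axin2 was 36.7 to 69.1 in the 6 and 15.5 to 53.7 in the other 10. Ctnnb1 and Tcf7l2 lay the other way. Ctnnb1 was 464 to 690.4 in the 6 and 569 to 976 in the other 10. Tcf7l2 was 43.0 to 57.9 in the 6 and 57.4 to 117 in the other 10. The ranges overlapped for each of the 10 genes, while 2.60% of all genes were higher and 3.68% lower in all 6 than in every one of the other 10. The libraries were split by these data, so no test was made, and the part of tissue content in these values was not tested.

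**Figure D3:**
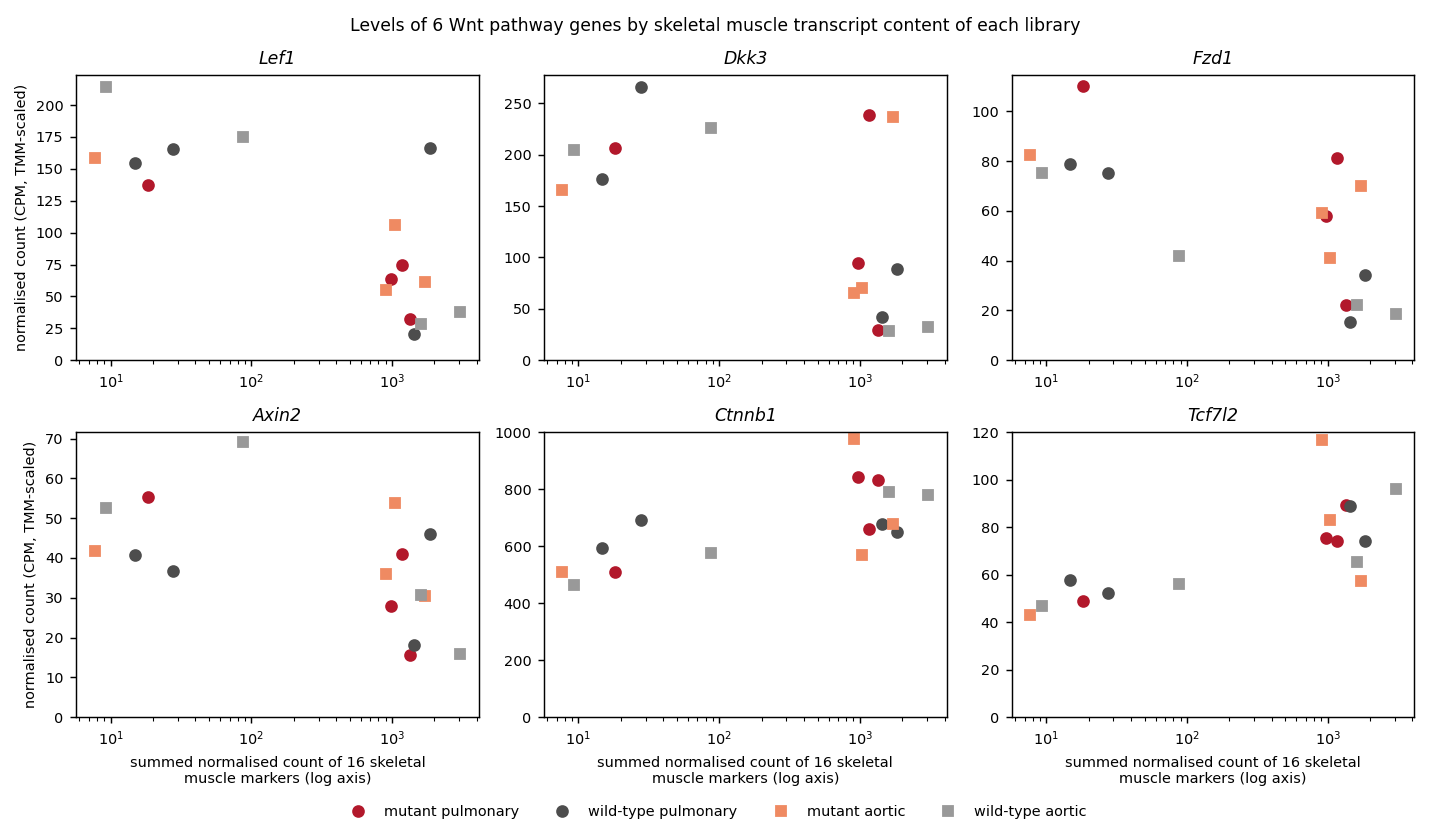
Normalised count of 6 genes (vertical axes, from 0) against the summed normalised count of 16 skeletal muscle markers (horizontal log axis), 1 point per library, with circles for pulmonary and squares for aortic valves. The 6 libraries with a marker sum of 7.68 to 87.9 hold Lef1 at 137 to 214 and Tcf7l2 at 43.0 to 57.9, and in the 10 libraries with a sum of 911 or more Lef1 reaches from 20.3 to 166.

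Divided by exon length, with all annotated exons of a gene merged, levels were highest for Ctnnb1 and lowest for Wnt9a. Ctnnb1 averaged 129.9 ± 27.1 normalised counts per kb of exon (SD over 16 libraries, all groups together) and was above Dkk3 in 16 of 16 libraries. Dkk3 averaged 40.4 ± 25.9 per kb and was above Fzd2 in 13 of 16. Fzd2 (14.3 ± 5.55), Fzd1 (13.2 ± 6.75), Lef1 (11.7 ± 7.22) and Sfrp1 (11.1 ± 3.32) followed, and their order changed between libraries: Fzd2 was above Fzd1 in 11, Fzd1 above Lef1 in 11 and Lef1 above Sfrp1 in 8 of 16. Tcf7l2 averaged 8.02 ± 2.35 per kb and Axin2 6.94 ± 2.75, with Tcf7l2 the higher in 9 of 16. Fzd7 averaged 5.18 ± 1.98 per kb and was above Wnt9a, at 2.03 ± 1.48, in 15 of 16 libraries.

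Other members of each gene's own family give these levels a frame. Of 18 other Wnt ligand genes, 9 were in the table. Per kb of exon, Wnt4 had a median of 20.7, Wnt9b 16.4 and Wnt5a 7.40 over the 16 libraries, against 1.62 for Wnt9a. Wnt9b, the closest relative of Wnt9a, ranged from 2.07 to 258 normalised counts. Among receptors, Fzd2 and Fzd1 had the highest medians per kb, 14.4 and 13.9, followed by Fzd7 with 5.11, Fzd6 with 4.76, Fzd10 with 3.12, Fzd4 with 2.72 and Fzd3 with 2.35. With Dkk3 set beside the secreted antagonists, Sfrp2 (43.2) and Dkk3 (38.7) had the highest medians, followed by Igfbp4 (30.6), Dkk2 (13.7) and Sfrp1 (10.8).

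**Figure D4:**
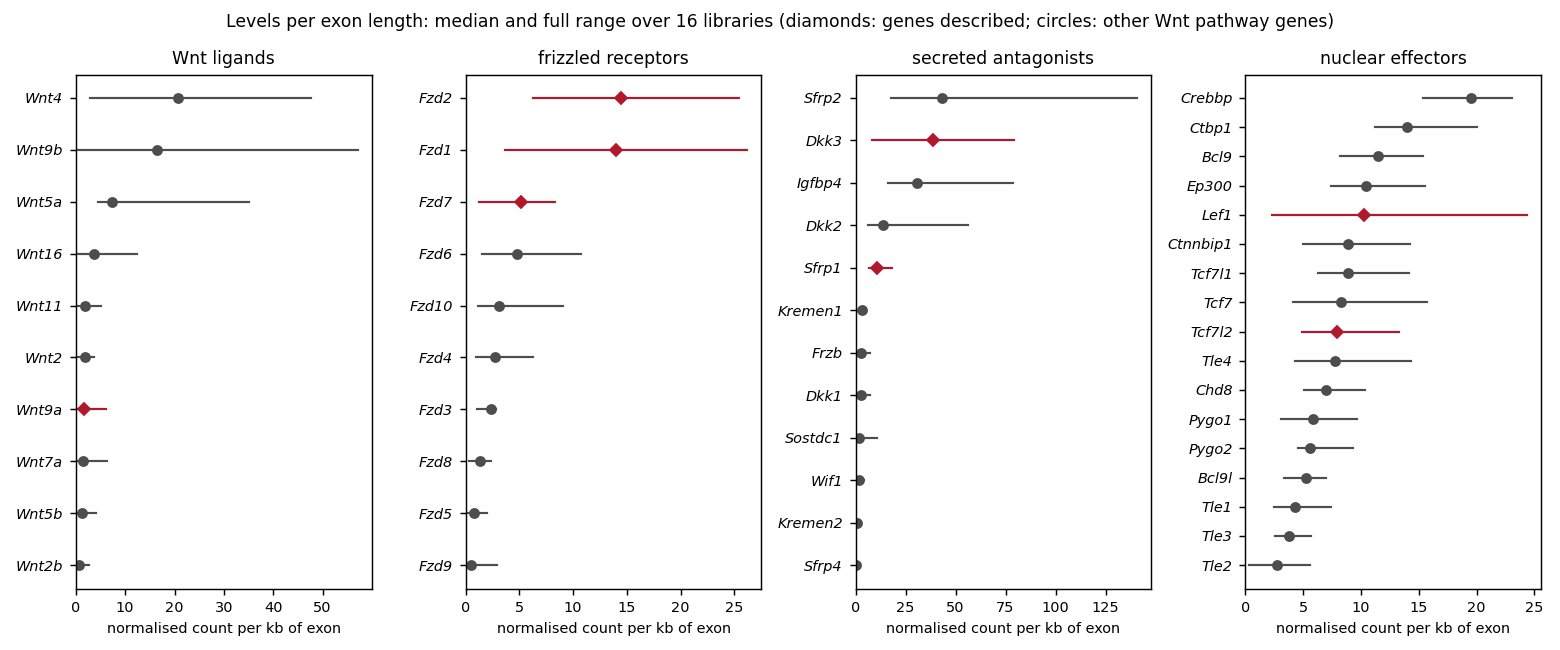
Normalised count per kb of exon (horizontal axes, from 0) of Wnt ligands, frizzled receptors, secreted antagonists and nuclear effectors, as the median (symbol) and full range (line) over the 16 libraries, with diamonds for the genes described and circles for other pathway genes. Fzd2 and Fzd1 stand at the top of the receptors with medians of 14.4 and 13.9, followed by Fzd7 at 5.11 and Fzd6 close to it at 4.76. Wnt9a, at 1.62, lies far below Wnt4 at 20.7.

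The rest of the pathway was read from lists of 118 further Wnt genes, of which 100 were in the table. Limma called 0 of the 100 in any contrast, as it called 0% of all genes. For the mean genotype effect, 69 of the 100 lay above 0 and 31 below, with a median log2 difference of 0.07, beside 7294 above and 6669 below and a median of 0.01 over all genes tested. Among the 10 genes themselves 6 lay above 0 and 4 below, with a median of 0.04. The other frizzled genes lay above 0 in 6 of 7, with a median of 0.22, and the Wnt receptor genes Fzd3, Fzd6 and Fzd4 had mean differences of 0.22 (SE 0.26), 0.67 (SE 0.34) and 0.63 (SE 0.28). Secreted antagonists lay above 0 in 7 of 10, with a median of 0.29, and Igfbp4, which encodes an insulin-like growth factor binding protein, had 0.08 (SE 0.27), Sfrp2, a relative of Sfrp1, 0.50 (SE 0.33), and Dkk2, of the dickkopf family, 0.17 (SE 0.41).

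Commonly used beta-catenin target genes lay above 0 in 13 of 18, with a median of 0.05. Ccnd1, a cell cycle regulator, had a mean difference of 0.22 (SE 0.24), Apcdd1, a membrane inhibitor of Wnt signalling, 0.08 (SE 0.64), and Nkd1, a feedback inhibitor, -0.10 (SE 0.46). Nuclear effectors lay above 0 in 9 of 15, with a median of 0.02, and the coactivator genes Crebbp and Ep300 had 0.04 (SE 0.12) and -0.06 (SE 0.17) and the chromatin remodeller gene Chd8 -0.11 (SE 0.16). Of the cytoplasmic transducers 12 of 17 lay above 0, with a median of 0.06, and the kinase genes Csnk1a1 and Gsk3b, which mark beta-catenin for destruction, had 0.05 (SE 0.11) and 0.15 (SE 0.13). The tankyrase gene Tnks2, whose product acts on axin, had -0.02 (SE 0.13). Planar cell polarity genes lay above 0 in 6 of 12, with a median of -0.05, and Daam1, which links Wnt receptors to actin, had -0.18 (SE 0.24), beside 0.04 (SE 0.25) for Prickle1 and 0.15 (SE 0.20) for Prickle2. Co-receptors and receptor turnover genes lay above 0 in 11 of 13, with a median of 0.04, and the co-receptor genes Lrp6 and Ryk had 0.11 (SE 0.18) and 0.12 (SE 0.17), and Rspo3, a secreted enhancer of Wnt signalling, -0.16 (SE 0.39). Wnt processing and ligand-modifying genes lay above 0 in 6 of 7, with a median of 0.15, and the glypican genes Gpc3 and Gpc6 had 0.37 (SE 0.25) and 0.27 (SE 0.22), and Wls, needed for Wnt release, 0.03 (SE 0.33). Among the other Wnt ligands 5 of 9 lay above 0, with a median of 0.17, and Wnt9b had 1.00 (SE 0.88), Wnt4 0.34 (SE 0.66) and Wnt5a 0.18 (SE 0.36).

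Some of these genes showed the same split between the 6 libraries poor in skeletal muscle markers and the other 10. Wnt4 was 112 to 200.04 in the 6 and 12.1 to 104 in the other 10. Apcdd1 was 155 to 277 in the 6 and 16.03 to 142 in the other 10, and Nkd1 was 98.0 to 154 and 23.2 to 91.5. Ccnd1 lay the other way, at 76.5 to 121 in the 6 and 126 to 219 in the other 10. Of all 100 genes, 8 were higher in all 6 libraries than in every one of the other 10 (also Fzd10, Notum, Ptk7, Ror2 and Wnt16) and 1, Ccnd1, was lower, beside 2.60% and 3.68% of all genes tested. The genes of this paragraph were singled out after their values were seen, and no test was made.

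The genes most like 5 of the 10 in their pattern over the 16 libraries were found by the root-mean-square (RMS) difference of centred log2 values among 9372 genes with a mean of at least 10. For Lef1, whose own RMS deviation was 1.04, they were Ptprk at 0.255, Itpr1 at 0.274 and Lrrc8a at 0.293. For Axin2 (own deviation 0.603) they were Tm9sf4 at 0.236, Sdc3 at 0.240 and Jun at 0.276. For Dkk3 (1.13) they were Mmp2 at 0.431, Txndc5 at 0.441 and Fstl1 at 0.445. For Sfrp1 (0.420) they were Mapkap1 at 0.242, Osbpl1a at 0.257 and Plpp5 at 0.266. For Wnt9a (0.847) they were Tmem29 at 0.489, Zfyve9 at 0.593 and Dzip1l at 0.596. The mean of Wnt9a itself, 6.77, was under the minimum of 10 set for the genes searched.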

How the data were processed

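RNA from laser-cut valves was purified (PicoPure), amplified (Ovation RNA-Seq V2) and sequenced, per the labels' protocols. The submitters' processing notes name CASAVA 1.8.2, cutadapt 1.6, FastQC, RSEM 1.2.3 and build GRCm38. The authors deposited a normalised signal per gene; neither its normalisation nor any filter on low values is given in the sources used here. Within each library 100% of the values were whole multiples of 1 read (tolerance 0.05 read), and the scaling differed from recomputed TMM (trimmed mean) factors by at most 3.7e-07%, so the values are TMM-scaled CPM. The recovered reads may be rounded RSEM estimates.

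limma 3.58.1 in R 4.3.3 was fitted to log2(value + 1) over 16 libraries with a mean per group and a mean-variance trend (two-sided, Benjamini-Hochberg, threshold 0.05) on 13963 genes. Folds on this scale understate changes of low genes. Alternatives were edgeR 4.0.16 and DESeq2 1.42.0 on the recovered reads, other pseudocounts (0.5 and 4), filters and scalings, library weights, a litter block, a skeletal muscle covariate and left-out libraries. The model was run on simulated counts only to check its code. Those counts held no litter pairs and no shared differences in tissue content, so error rates in the real libraries were not tested. Exon lengths came from GENCODE annotation of GRCm38, as the merged exons of all annotated transcripts of a gene. This length can exceed that of the transcripts present, which lowers the level per kb. Its part in the order of the genes was not tested. The largest nucleotide matches to other genes, from BLAST 2.17.0, were to overlapping genes, apart from 96 bases shared by Lef1 and Gm19024.

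Replicates of a group correlated at r = 0.790 to 0.932 over 24 pairs. Per the labels, libraries of the same number in a valve share a litter. Their deviations from group means correlated at 0.49, -0.03, 0.07 and 0.45 in the pulmonary and 0.48, 0.01, 0.20 and 0.64 in the aortic valve. Of 5 litters, 3 gave both valves, and valves are not tied to embryos. If 1 embryo gave both and its valves vary together, p-values for the genotype effect averaged over the valves are too small. Those between valves, and for the difference of the genotype effect between valves, are then too large. Counting error covers only part of the error, since no molecular identifiers are mentioned.

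The 10 genes, the lists and the marker genes were chosen with earlier results of these data known. The text names all 10, Jag1, and of each other Wnt list up to 3 genes with the highest mean, plus the 3 genes most like 5 of the 10. It also names Postn and Sox9 as examples of markers and genes that share sequence with the 10. Further Wnt genes are named because they separated the 6 libraries poor in skeletal muscle markers from the rest.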

Additional observations from a re-analysis of the deposited data

Results flagged for a closer look

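In 40 groups of 4 libraries (10 genes in 4 groups), 4 held a library farther from the others than the critical value of Dixon's test at 95% allows. Chance alone marks about 1 group in 20 only where values are normally distributed. The test was run on normalised counts rather than log2 values, and their distribution was not tested, so the chance rate here is not known. Fzd2 was 93.2 in mutant aortic library 1 and 30.9 to 40.3 in the other mutant aortic libraries. Wild-type aortic library 3 had 31.9 of Fzd7, and the rest of that group had 15.97 to 17.9. Lef1 was 20.3 in wild-type pulmonary library 1 and 155 to 166 in the other wild-type pulmonary libraries. Wnt9a was 20.3 in wild-type pulmonary library 2 and 3.41 to 6.25 in the other wild-type pulmonary libraries.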

How the results depend on the processing

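Across 30 alternatives, 1074 of 1190 recomputed values of the 10 genes kept their direction, 116 reversed, and 0 passed the threshold (smallest adjusted p 0.551 in any model). Part of the kept values could not change, so these counts overstate stability. Leaving out a library of 1 valve does not alter the genotype effect in the other valve. Other filters and the litter block leave every difference as it is. Of the reversed values 110 had a log2 difference under 0.25 in size in the main model. Wnt9a and Fzd7 kept their direction in every alternative run for all 3 genotype effects, and the cause of each reversal was not tested. The replicate block for the litter pairs cannot change the differences, since each pair holds 1 mutant and 1 wild-type library. It moved the number of genes called for the mean over both valves from 0 to 2. Calls over all genes, 0 in the main model for each contrast, were 2 (pulmonary) and 5 (mean) with DESeq2 and 2 (mean) with the muscle covariate. They were 2, 3 and 3 (pulmonary, aortic, mean) without the 6 libraries poor in skeletal muscle markers, and 1, 3 and 3 over those 6 alone, where each valve had 1 mutant library assumed to vary like the others. Leaving out 1 library gave 0 to 2 calls in the aortic valve and 0 to 3 for the mean, with the nonzero counts without wild-type pulmonary 2 (2, mean) and without wild-type aortic 4 (2, aortic, and 3, mean). Over the 6 libraries poor in skeletal muscle markers alone, the reversed values were Axin2 0.51, Tcf7l2 -0.17, Ctnnb1 -0.34 in the pulmonary valve, Lef1 -0.29, Axin2 -0.52, Tcf7l2 -0.25, Ctnnb1 -0.019, Dkk3 -0.37 in the aortic valve, Axin2 -0.0087, Tcf7l2 -0.21, Ctnnb1 -0.18, Dkk3 -0.22 for the mean over both valves and Wnt9a 0.43, Fzd2 0.50, Fzd7 0.021 between valves. Without those 6 libraries, the reversed values were Tcf7l2 -0.031, Dkk3 0.50 in the pulmonary valve, Fzd2 0.079, Ctnnb1 -0.12, Sfrp1 0.25 in the aortic valve, Fzd2 0.23, Lef1 0.48, Sfrp1 0.11 for the mean over both valves and Fzd1 -0.030, Lef1 0.21, Tcf7l2 -0.0079, Ctnnb1 -0.071 between valves. With limma library weights, the reversed values were Fzd2 -0.19 in the pulmonary valve, Lef1 -0.54, Axin2 -0.29 in the aortic valve, Axin2 -0.26, Dkk3 -0.074 for the mean over both valves and Fzd2 0.017, Dkk3 -0.0034 between valves. Without the 2 libraries highest in erythroid markers, the reversed values were Fzd1 -0.0095, Fzd2 -0.29 in the pulmonary valve and Fzd2 0.057, Lef1 0.51, Axin2 0.070, Tcf7l2 -0.061 between valves. With edgeR, the reversed values were Fzd2 -0.0030 in the pulmonary valve, Lef1 -0.26, Axin2 -0.057 in the aortic valve, Axin2 -0.038 for the mean over both valves and Tcf7l2 -0.0073 between valves. With DESeq2, the reversed values were Lef1 -0.25, Axin2 -0.056 in the aortic valve, Axin2 -0.034 for the mean over both valves and Tcf7l2 -0.0074 between valves. With the muscle marker mean as covariate, the reversed values were Axin2 0.062, Tcf7l2 -0.053, Dkk3 0.21 in the pulmonary valve and Lef1 0.020 for the mean over both valves. With quantile normalisation, the reversed values were Axin2 -0.0046 for the mean over both valves. In the pulmonary valve, leaving out 1 library at a time reversed some values, with ranges of Fzd1 -0.0095 to 0.92, Fzd2 -0.29 to 0.31, Axin2 -0.37 to 0.25, Tcf7l2 -0.044 to 0.25, Sfrp1 -0.27 to 0.19 and Dkk3 -0.57 to 0.52. In the aortic valve, leaving out 1 library at a time reversed some values, with ranges of Lef1 -0.37 to 0.59, Axin2 -0.28 to 0.40, Tcf7l2 -0.11 to 0.36, Ctnnb1 -0.13 to 0.18 and Sfrp1 -0.28 to 0.11. For the mean over both valves, leaving out 1 library at a time reversed some values, with ranges of Lef1 -0.56 to 0.038, Axin2 -0.18 to 0.18, Tcf7l2 -0.020 to 0.22, Ctnnb1 -0.018 to 0.15, Sfrp1 -0.19 to 0.036 and Dkk3 -0.044 to 0.51. Between valves, leaving out 1 library at a time reversed some values, with ranges of Fzd1 -0.031 to 0.35, Fzd2 -0.21 to 0.057, Lef1 -0.28 to 0.33, Tcf7l2 -0.079 to 0.16, Ctnnb1 -0.022 to 0.15 and Dkk3 -0.042 to 0.51. Wnt9a rests on 9 to 152 reads a library, while Lef1 had 119 or more and Dkk3 192 or more in every library. Valve effects had no replicate block.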
